A study of Rattus norvegicus with 4 samples.

Results

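The comparison described here sets rat granulosa cells that carried a DNA-binding mutant of active FOXO1 against cells that carried green fluorescent protein (GFP), both kept with follicle-stimulating hormone (FSH). Granulosa cells are the somatic cells that surround the oocyte in the ovarian follicle and make estradiol. They were primary cells from estradiol-treated immature female Sprague-Dawley rats, 23 to 25 days old, plated without serum in the medium on dishes coated with serum. Adenovirus was added for 4 h, and after washing the cells were kept for 24 h with FSH at 100 ng/ml or with vehicle. The 4 groups had 1 microarray each: GFP virus with vehicle, GFP virus with FSH, FOXOA3 virus with FSH, and FOXOA3-mDBD virus with FSH. FOXOA3 is a constitutively active FOXO1, and FOXOA3-mDBD is its DNA-binding mutant, called the mutant below. The amount of virus, the promoter in the vectors, the species of the FOXO1 insert, and whether an array held RNA of 1 culture or several are not stated in the labels. No group was without virus.

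All genes of the array that were read by a probe set with exactly 1 gene symbol were included. These were 14217 genes, read by 20826 of the 31099 probe sets. A gene was counted as measured where the brighter of its 2 signals was above 100.5, the median signal over all arrays, which left 9748 genes measured and 4469 not. Dimmer signals were raised to that floor, and a fold against a floored signal is a lower bound, written "at least". A gene was called higher or lower where the mutant FSH array and the GFP FSH array were 2-fold or more apart. With 1 array a group, no difference below has a replicate check, and none was tested.

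FOXO1 is a forkhead transcription factor that is excluded from the nucleus once the kinase AKT has phosphorylated it. In granulosa cells FSH acts through cyclic AMP and also through phosphatidylinositol 3-kinase and AKT, and so inactivates FOXO1 while it turns on aromatase and the luteinizing hormone receptor. FOXO proteins can act on genes by binding DNA themselves or by binding other transcription factors, and a form that cannot bind DNA separates these routes in principle.

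The mutant FSH array differed from the GFP FSH array over a large share of the genes. Of the 9748 measured genes, 1221 (12.5%) were higher and 1865 (19.1%) were lower with the mutant, and 6662 lay within 2-fold. The lower genes were more numerous, but the far ends of the distribution were taken by higher genes: 138 genes were 8-fold or more higher and 41 were 8-fold or more lower, and at 32-fold the counts were 26 and 1. The dimmer of the 2 signals lay at the floor in 278 of the higher and 220 of the lower genes. The median log2 ratio of all measured genes was -0.16, with quartiles at -0.81 and 0.48, and every list median below is to be read against it. Counts of list members are likewise to be read against the 12.5% higher and 19.1% lower of all measured genes. Centring, here the subtraction of the median log2 ratio of measured genes from every ratio, gave 1517 higher and 1465 lower genes. An intensity-dependent (loess) scaling gave 1584 and 1332. The share of higher genes among those called thus went from 39.6% to 50.9% and 54.3%.

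**Figure D1:**
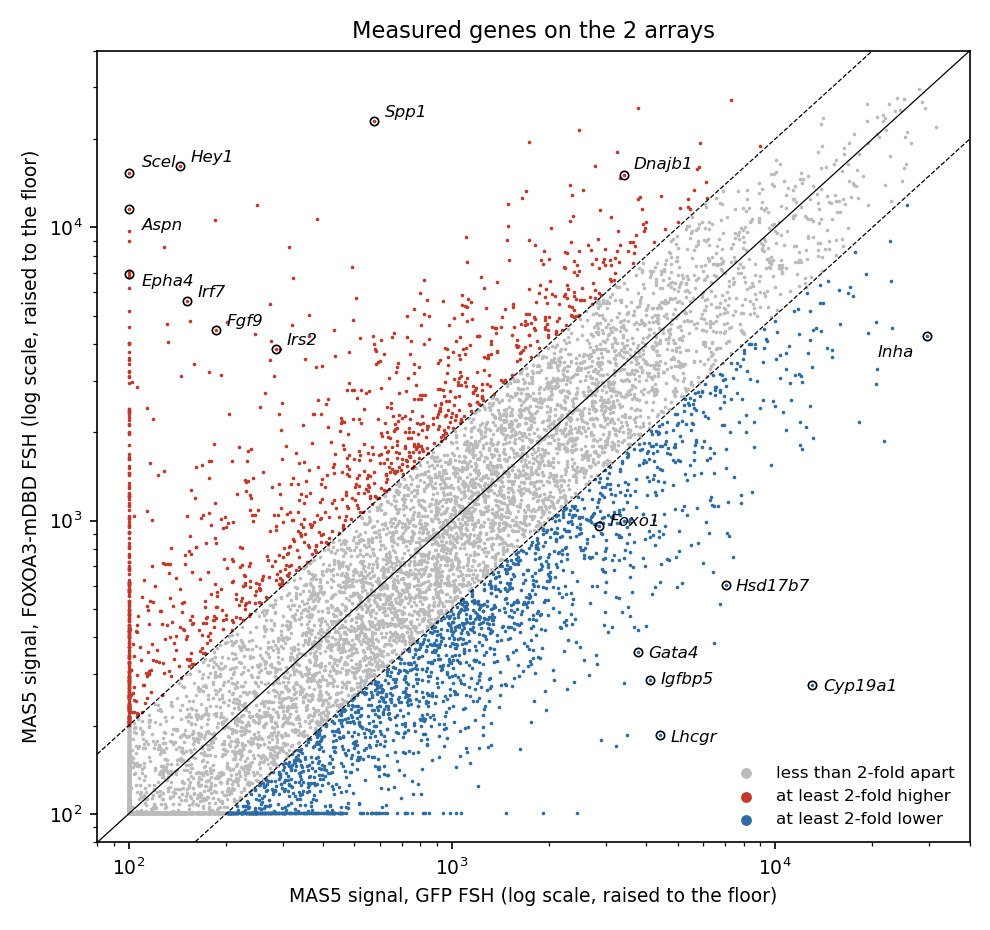
Signals of the 9748 measured genes on the GFP FSH array (horizontal) and the FOXOA3-mDBD FSH array (vertical), both on log scales with dim signals raised to the floor of 100.5; the solid line marks equal signals and the dashed lines 2-fold. The 1221 higher genes are red, the 1865 lower genes are blue, and a column of red points at the left edge holds genes such as Scel, Aspn and Epha4 that were under the floor with GFP.

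Second probe sets for the same gene mostly had the same sign. Of 375 higher genes with another measured probe set, the next brightest probe set had the same sign in 96.5% and was also 2-fold or more higher in 63.2%. Of 413 lower genes, 93.5% had the same sign and 46.0% were also 2-fold or more lower. None of either group had a second probe set 2-fold or more the other way. Some genes named below did disagree in size. For Gas6, a ligand of the AXL family of receptors, the log2 ratios of the 3 measured probe sets were -3.70, -0.19 and -0.49. For Gata4 they were -3.39 and -0.32, and for the cannabinoid receptor gene Cnr1 they were 5.69 and 0.37. The smaller value of each of these 2 genes is a bound, since 1 of its signals (56.0 for Gata4 and 37.6 for Cnr1) was under the floor.

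The array controls set the 4 arrays in pairs. RNA spikes added to samples had a geometric mean signal of 395 on the GFP FSH array and 539 on the mutant FSH array, against 21.4 with GFP vehicle and 22.6 with FOXOA3. The arrays compared here are thus alike in that control, and their 3′ to 5′ signal ratios were 12.0 and 10.7 for beta-actin and 2.46 and 3.15 for GAPDH. They were not alike in the 3′ control signals themselves. Beta-actin had 13778 with GFP FSH and 7391.5 with the mutant, and GAPDH had 20478 and 9027. What this means for the lower calls of bright genes was not tested. MAS5 had scaled all arrays to a trimmed mean near 500.2, which hides any difference in total RNA. In such bulk samples fewer cells of a type and less RNA per cell cannot be told apart.

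The genes furthest above GFP were a mixed group of membrane, matrix and nuclear proteins. Scel, which encodes the epithelial envelope protein sciellin, had a signal of 3.0 on the GFP FSH array and 15268 on the mutant FSH array, at least 152-fold higher. Asporin (Aspn), a small leucine-rich proteoglycan, went from 22.4 with GFP to 11514 with the mutant, with 1099 in vehicle and 3305 with FOXOA3. The nuclear transport receptor gene Ranbp17 had 97.3 and 9745. All of these were under the floor with GFP, so their folds are bounds.

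Among genes that were above the floor on both arrays, Hey1, a repressor induced by Notch, was furthest apart, at 144 with GFP and 16138 with the mutant (112-fold). Cerebellin 1 (Cbln1), a secreted organiser of synapses, had 128 and 8578 (66.8-fold). In vehicle and with FOXOA3, Hey1 had 517.5 and 955, and Cbln1 had 978 and 253. For Aspn, Hey1 and Cbln1 the GFP FSH array was thus the lowest, and the folds against it are larger than those against vehicle. The exocyst subunit gene Exoc6 had 184 and 10594 (57.4-fold). Fgl2, a secreted fibrinogen-like protein, had 250.1 and 11924 (47.7-fold). Proteins of other genes among the 15 highest act in adhesion (Pcdh20), axon guidance (Epha4, Epha3), protease inhibition (Serpini1) and transcriptional repression (Prdm1), with Chodl and Cnr1 beside them. Cnr1 was bright with both FOXO1 forms, at 4662 with FOXOA3 and 5193 with the mutant. Serpini1, which encodes neuroserpin, went from 90.7 to 6202, at least 61.7-fold higher. Prdm1, the repressor also known as Blimp-1, went from 60.9 to 4564, at least 45.4-fold higher.

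The lowest genes held products of differentiated granulosa cells. Aromatase (Cyp19a1), which turns androgens into estrogens, had 13042 with GFP and 275 with the mutant, 47.5-fold lower, with 35.0 in vehicle and 726 with FOXOA3. The luteinizing hormone receptor (Lhcgr) had 4402 and 186 (23.7-fold lower), with 20.0 in vehicle and 497 with FOXOA3. For both, the mutant lay between vehicle and FOXOA3. Inositol-3-phosphate synthase (Isyna1), which makes inositol from glucose 6-phosphate, had 21659 and 1865 (11.6-fold lower), and C-type natriuretic peptide (Nppc), which holds oocytes in meiotic arrest, had 1066 and 26.7 (at least 10.6-fold lower). Mmp11 and Selenbp1 were of another kind, since they were bright on the vehicle and FOXOA3 arrays too. Mmp11, a matrix metalloprotease, had 3054 in vehicle, 3224 with GFP and FSH, 2109 with FOXOA3 and 171 with the mutant. Selenbp1, a selenium-binding protein, had 2064, 3478, 1422 and 186 in the same order.

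Several differences were read by 3 or more probe sets. Each of the 3 Cyp19a1 probe sets was at least 33.3-fold lower with the mutant, and for a pair of them the mutant signal was under the floor. Each of the 4 Fgl2 probe sets was at least 32.7-fold higher, and each of the 3 for Cxcr4, the receptor of the chemokine CXCL12, was at least 24.3-fold higher, with 1 GFP signal under the floor for either gene. The Cxcr4 signal itself went from 313 to 8566. Epha4, an ephrin receptor that steers axons and cell contacts, was under the floor with GFP on all of its 4 probe sets, which were at least 4.52-fold to at least 69.2-fold higher. The kinase gene Dstyk, the adhesion gene Pcdh17, the O-GlcNAcase gene Oga, the ubiquitin-linked gene N4bp1 and the zinc transporter gene Slc39a6 were each higher with all of 3 probe sets, by at least 5.52-fold.

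Large differences also occurred in bright genes. Osteopontin (Spp1), a secreted matrix phosphoprotein, went from 575 with GFP to 22972 with the mutant, while vehicle had 452 and FOXOA3 had 721. The ribosome quality control ligase Ltn1 had 2467 and 21432 (8.69-fold higher), and the membrane protein Cmtm6 had 3769.5 and 25573 (6.78-fold higher). Vdac2, a channel of the outer mitochondrial membrane, had 5876 and 19330.5 (3.29-fold higher). Prnp, the prion protein gene, was the least apart of the 10 brightest called genes, at 9009.6 and 18947. Of the 959 genes with a signal of 5000 or more on either array, 172 were higher and 189 lower. Of all measured genes 12.5% were higher and 19.1% lower, so the share of lower genes was near that of the background.

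None of the FOXO genes read here was 2-fold or more higher with the mutant virus. The array's Foxo1 signal was 8149 in vehicle, 2862 with GFP and FSH, 3834 with FOXOA3 and 961 with the mutant, which was the lowest of the 4 and 2.98-fold below GFP FSH. Since the species and extent of the insert are not given, this probe set does not show whether the transgene was expressed. Foxo3 had 2263 with GFP and 1159 with the mutant, and Foxo4 had 233 and 366, both less than 2-fold apart.

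Of 35 measured FOXO-linked genes of metabolism, stress and autophagy, 11 were higher (31.4%), 4 were lower (11.4%) and 20 were within 2-fold with the mutant, with a median log2 ratio of 0.22. The shares of all measured genes were 12.5% and 19.1%. Insulin receptor substrate 2 (Irs2), a docking protein for insulin and IGF receptors, was 1896 in vehicle, 287 with GFP and FSH, 1599 with FOXOA3 and 3838 with the mutant (13.4-fold higher). Pdk4, the kinase that shuts pyruvate dehydrogenase, was 546, 34.4, 1513 and 617 in that order. For both genes the GFP FSH array was the lowest of the 4. The sphingosine-1-phosphate receptor gene S1pr1 had 128 with GFP and 717 with the mutant (5.60-fold higher), well under the 5714 of vehicle. The lower members were Selenop, a plasma selenoprotein, at 13057 and 1909, Ddit4, an inhibitor of mTORC1, at 10827 and 2039, Sod2, the mitochondrial superoxide dismutase, at 4071 and 920.3, and catalase (Cat). Some cell cycle and death targets stayed within 2-fold: the log2 ratios were 0.50 for Cdkn1b, 0.23 for Bcl2l11 and -0.38 for Ccng2. They are named here after their values were seen and do not stand for the other members. Sesn1, also in this list, had 537 with GFP and 1823 with the mutant (3.40-fold higher).

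**Figure D2:**
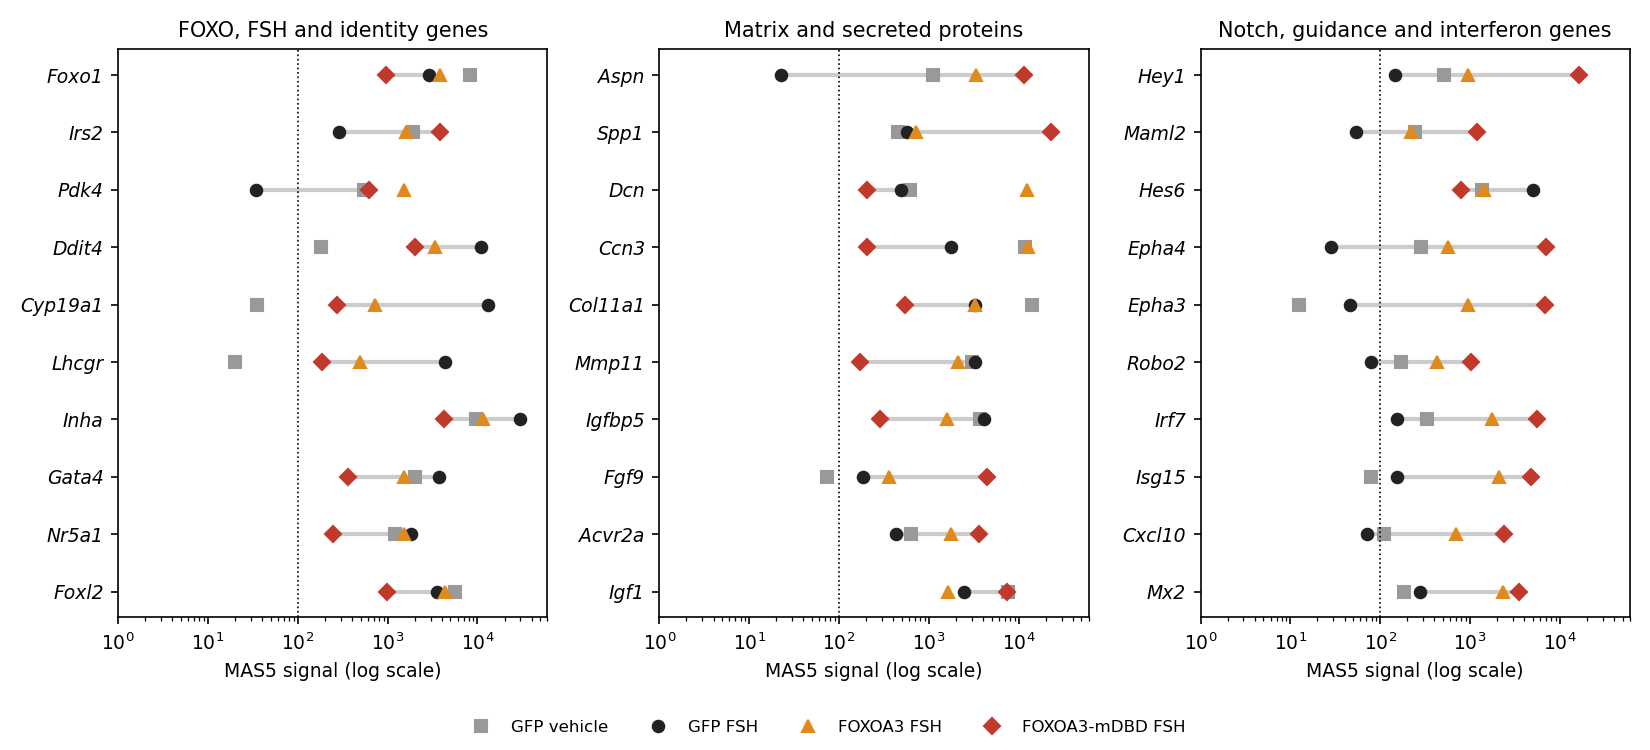
MAS5 signals (log scale) of 30 genes described in the text on the 4 arrays, 1 marker per array; the grey bar joins GFP FSH to FOXOA3-mDBD FSH and the dotted line is the floor. The mutant (red diamonds) is the highest of the 4 arrays for genes such as Spp1, Hey1, Epha4, Irf7 and Fgf9, and the lowest for genes such as Foxo1, Ccn3, Mmp11, Gata4 and Nr5a1.

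Of 31 measured members of the gonadotropin, prolactin and cyclic AMP list, 6 were higher (19.4%) and 6 lower (19.4%), against 12.5% and 19.1% of all measured genes, so the share of lower members was that of the background. The prolactin receptor (Prlr) had 5042 with GFP and 925 with the mutant (5.45-fold lower). Rgs4, which speeds the turning off of G proteins, had 16.0 and 2352 (at least 23.4-fold higher) and was under the floor on the other 3 arrays. The genes of 3 anchoring proteins, which hold protein kinase A in place, were higher: Akap1 had 282 and 3125 (11.1-fold), Akap11 had 1014 and 4894 (4.82-fold), and Akap13 had 593 and 2227 (3.75-fold).

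Of 28 transcription factors of the granulosa cell 12 were lower, 3 higher and 13 within 2-fold, with a median log2 ratio of -0.81. Steroidogenic factor 1 (Nr5a1), which drives steroid enzyme genes, was 1214 in vehicle, 1800.2 with GFP and FSH, 1506 with FOXOA3 and 243 with the mutant (7.41-fold lower). Foxl2, which keeps the ovarian fate, was 5546, 3536, 4297 and 994 in that order (3.56-fold lower). Gata4, a zinc finger factor of the gonad, was 3762 with GFP and 358 with the mutant (10.5-fold lower), though its second probe set gave a bound of less than 2-fold, as above. Cebpb, needed for luteinization, was 519.9 with GFP, 2774 with FOXOA3 and 99.1 with the mutant (at least 5.17-fold lower).

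Most measured genes of the steroid hormone and sterol lists were lower. In the steroid hormone list 10 of 16 measured members were lower and 1 was higher, with a median log2 ratio of -1.18. Beside aromatase, the mitochondrial cholesterol-binding protein Tspo had 7870.1 with GFP and 1226 with the mutant (6.42-fold lower), and Hsd17b1, which turns estrone into estradiol, had 4564 and 961 (4.75-fold lower). The higher member was Cyp1b1, which hydroxylates estrogens, at 496 and 2227. Of 25 sterol synthesis genes 20 were lower and 0 higher, the median log2 ratio being -2.11, and the 5 within 2-fold were Scap, Idi1, Lbr, Ggps1 and Insig2. Hsd17b7, an enzyme of both pathways, had 7026 and 605 (11.6-fold lower), and Mvk, the mevalonate kinase, had 1292 and 169.6 (7.62-fold lower). Of 40 fatty acid and glycerolipid genes, 14 were lower, 4 higher and 22 within 2-fold (median -0.72). The lower ones included the desaturases Fads1, at 4402 and 616, and Fads2, at 581 and 89.4, with fatty acid synthase (Fasn) at 3554 and 641.

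Hsd17b7, the lowest gene of the sterol list, was picked after its values and matches were seen and is shown with the 250 bases before its start in RefSeq (GRCr8, chr13:84722755-84723004, minus strand). Capitals mark the 3 matches to the CCAAT box, searched as CCAAT on both strands and here read on the opposite strand.
Hsd17b7: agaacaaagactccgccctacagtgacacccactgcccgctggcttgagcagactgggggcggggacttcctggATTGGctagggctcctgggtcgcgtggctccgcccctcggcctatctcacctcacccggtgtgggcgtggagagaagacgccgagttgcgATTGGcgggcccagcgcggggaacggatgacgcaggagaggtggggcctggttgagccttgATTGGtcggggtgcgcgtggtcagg
The matches began 176, 86 and 25 bases before the start. At least 1 match was present in 39.6% of the 1556 lower genes with such a window, 34.5% of the 995 higher genes, 36.4% of all 8195 measured genes with a window, and 34.3% of all 27457 windows of this length. The sterol element TCACNCCAC, searched on both strands, was present in 1.03% of lower and 1.01% of higher genes, against 0.95% of measured genes.

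Signalling by inhibin, activin and bone morphogenetic proteins (BMPs) had members on both sides. Of 40 measured members 14 were lower and 6 higher, with a median log2 ratio of -0.39. Among ligands, the inhibin alpha subunit (Inha), which blocks release of FSH from the pituitary, had 29569 with GFP and 4267 with the mutant (6.93-fold lower), and Bmp3 had 27.2 and 609 (at least 6.06-fold higher). Among receptors, Acvr2a, which binds activin, had 436 and 3641 (8.36-fold higher), and Amhr2, which binds anti-Müllerian hormone, had 1844 and 343 (5.37-fold lower). Downstream, the BMP-responsive inhibitor Id1 had 3216 and 547 (5.88-fold lower) and the signal transducer Smad9 had 759 and 117 (6.49-fold lower). The secreted binding protein Fstl1 had 1104 and 168 (6.58-fold lower).

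Of 25 insulin and insulin-like growth factor (IGF) genes, 8 were lower and 2 higher, with a median log2 ratio of -0.07 that took the other sign under centring (0.10) and loess (0.24). The higher genes were Irs2, given above, and the ligand Igf1, which was 7579 in vehicle, 2437 with GFP and FSH, 1636 with FOXOA3 and 7429 with the mutant (3.05-fold higher). The receptor Igf1r had 4236 and 1006 (4.21-fold lower), the kinase Akt1 had 3154 and 1162 (2.71-fold lower), and the binding protein Igfbp5 had 4110.3 and 287 (14.3-fold lower). Of 27 ligands and receptors of receptor tyrosine kinases, a list that also holds Igf1r, 8 were lower (29.6%). In that list 4 were higher (14.8%, near the 12.5% of all measured genes). Fgf9, a fibroblast growth factor of the embryonic testis and the adult ovary, had 73.2 in vehicle, 186 with GFP, 359 with FOXOA3 and 4465 with the mutant (24.0-fold higher). The epidermal growth factor receptor (Egfr) had 2194 and 548 (4.00-fold lower), and its ligand epiregulin (Ereg) had 755 and 90.5 (at least 7.52-fold lower).

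Among matrix genes more members were lower than higher, and many lay within 2-fold. Of 13 measured collagens 6 were lower and 0 higher, with a median log2 ratio of -0.80. Col11a1, a fibril-forming collagen, was 13943 in vehicle, 3299 with GFP and FSH, 3247 with FOXOA3 and 544 with the mutant (6.06-fold lower), and Col8a1, a short-chain collagen, had 3658 with GFP and 432 with the mutant (8.46-fold lower). Of 35 proteoglycans and matrix glycoproteins 14 were lower and 6 higher. Requiring both signals above the floor left 9 lower and 3 higher. The highest were Aspn and Spp1, given above, while the adhesion protein Tgfbi had 1469 and 68.2 (at least 14.6-fold lower). Ccn3, a matricellular protein, was high with vehicle (11613) and with FOXOA3 (12767), at 1761 with GFP and FSH, and at 206 with the mutant (8.54-fold lower). Ccn1, of the same family, went the other way, from 118 to 703 (5.93-fold higher).

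Of 23 matrix proteases and inhibitors 11 were lower and 3 higher, with a median log2 ratio of -0.99. Adamts1, a versican-cleaving protease of ovulation, had 4253 with GFP and 825 with the mutant (5.16-fold lower), and Mmp14, which activates other matrix proteases at the cell surface, had 2176 and 429.8 (5.06-fold lower). Mmp10, the metalloprotease stromelysin-2, was under the floor on the other 3 arrays and at 530.5 with the mutant. Of 27 genes of smooth muscle and the actin cytoskeleton 6 were lower (22.2%, near the 19.1% of all measured genes) and 2 higher, among them Myocd, a coactivator of serum response factor, at 351 and 77.0 (at least 3.49-fold lower).

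Adhesion, guidance and Notch genes held some of the most separated values. Of 31 adhesion and junction genes 10 were higher (32.3%) and 7 lower (22.6%, near the 19.1% of all measured genes). The gap junction protein gene Gjc1 had 431 with GFP and 4480.3 with the mutant (10.4-fold higher), and the tight junction protein gene Cldn11 had 813 and 80.4 (at least 8.09-fold lower). Of 28 guidance genes 6 were higher (21.4%) and 11 lower (39.3%). The ephrin receptor Epha3 had 45.5 and 6752 (at least 67.2-fold higher) and the Slit receptor Robo2 had 78.0 and 1016 (at least 10.1-fold higher), whereas the semaphorin genes Sema3b and Sema5a were lower, at 852 and 70.6, and at 2493 and 369.6.

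In the Notch list 5 of 18 measured members were higher (27.8%) and 4 lower (22.2%, near the 19.1% of all measured genes). Beside Hey1, the coactivator gene Maml2 had 53.9 with GFP and 1209.5 with the mutant (at least 12.0-fold higher) and Hey2 had 431 and 1179 (2.73-fold higher). Hes1, another repressor induced by Notch, was on the opposite side, at 747 and 238 (3.14-fold lower), and so was Hes6, at 5037 and 790.4 (6.37-fold lower). The ligands Jag1 and Jag2, named after their values were seen, had log2 ratios of 0.09 and -0.05. Of 29 WNT pathway genes 5 were higher (17.2%) and 7 lower (24.1%), near the background shares. The ligand Wnt4, which acts in the female gonad, had 2050.4 and 309 (6.63-fold lower), the receptor Ryk had 1808 and 8699.7 (4.81-fold higher), and the secreted antagonist Frzb had 41.9 and 677 (at least 6.73-fold higher).

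Interferon-induced genes had the highest median among the lists with 10 or more measured members. Of 39 measured effectors 21 were higher and 1 lower, with a median log2 ratio of 1.18. Requiring both signals above the floor left 12 higher, and a floor at the 75th percentile left 11. Effector genes above the floor numbered 28 of 42 in vehicle, 29 with GFP and FSH, 40 with FOXOA3 and 39 with the mutant. Irf7, the transcription factor that amplifies type I interferon, was 329 in vehicle, 152 with GFP and FSH, 1742 with FOXOA3 and 5623 with the mutant (37.0-fold higher). Isg15, a ubiquitin-like modifier, was 79.3, 154, 2103 and 4805 in that order (31.1-fold higher). For both genes the arrays with either FOXO1 form were above both GFP arrays.

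Other members followed the same order in part. Cxcl10, a chemokine for T cells, had 71.2 with GFP, 699.8 with FOXOA3 and 2372 with the mutant (at least 23.6-fold higher). Rsad2, which encodes the antiviral enzyme viperin, had 48.9, 1236 and 1646, and Usp18, which removes ISG15 from proteins, had 60.2, 1854 and 1620.4. Slfn4 stood apart with the mutant alone, at 275, 285 and 5489. The lower member was Ifitm2, a membrane protein that restricts virus entry, at 3891 with GFP and 746 with the mutant (5.21-fold lower). All groups had received adenovirus, and its dose in each group, which is not given, was not tested as a source of these differences.

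Sensors and receptors of interferon were mostly level. Of 15 measured members 3 were higher and 1 lower: Irf7, the RNA sensor Ifih1 at 78.4 with GFP and 962 with the mutant (at least 9.57-fold higher), Irf9 at 261 and 1468 (5.63-fold higher), and the receptor subunit Ifnar2 at 811 and 218 (3.72-fold lower). Taken as a list, antigen processing did not go with the effectors. Of 15 immunoproteasome and class I genes 1 was higher and 4 lower (median -0.77), with RT1-S3, a class I molecule, at 82.3 and 905 and the peptide transporter gene Tap2 at 355 and 99.6. The count of higher genes was 3 with the floor at the 25th percentile and 0 with both signals above the floor. The member B2m, named after its values were seen, counted as within 2-fold by its brighter probe set, at 3725.5 and 6886 (log2 ratio 0.89). Its other probe set had 1074 and 3097 (1.53). Of 30 subunits of the constitutive proteasome 1 was higher and 2 lower. Among 11 measured chemokines and cytokines 2 were higher (18.2%, against 12.5% of all measured genes). These were Cxcl10 and the epithelial cytokine Tslp, which had 64.1 and 2134 (at least 21.2-fold higher).

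The promoter windows of 4 higher interferon genes, picked after their values were seen because each holds the interferon element, show the sequence in place. The element was searched on both strands as GAAA, any 2 bases, GAAA, and capitals mark it. The windows are the 250 bases before the RefSeq start in GRCr8: Irf7 at chr1:205800024-205800273 (minus strand), Cxcl10 at chr14:15988816-15989065 (plus strand), Ifit3 at chr1:241527076-241527325 (plus strand) and Rsad2 at chr6:48788121-48788370 (minus strand).
Irf7: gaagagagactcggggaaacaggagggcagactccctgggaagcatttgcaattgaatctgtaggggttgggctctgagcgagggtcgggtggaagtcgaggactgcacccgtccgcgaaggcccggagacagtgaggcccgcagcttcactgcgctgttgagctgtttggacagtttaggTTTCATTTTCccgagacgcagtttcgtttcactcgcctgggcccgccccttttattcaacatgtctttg
Cxcl10: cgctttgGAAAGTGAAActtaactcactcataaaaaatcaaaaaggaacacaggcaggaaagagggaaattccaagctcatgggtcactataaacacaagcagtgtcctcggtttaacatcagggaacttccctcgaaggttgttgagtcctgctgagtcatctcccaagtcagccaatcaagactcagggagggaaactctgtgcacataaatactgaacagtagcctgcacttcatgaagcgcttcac
Ifit3: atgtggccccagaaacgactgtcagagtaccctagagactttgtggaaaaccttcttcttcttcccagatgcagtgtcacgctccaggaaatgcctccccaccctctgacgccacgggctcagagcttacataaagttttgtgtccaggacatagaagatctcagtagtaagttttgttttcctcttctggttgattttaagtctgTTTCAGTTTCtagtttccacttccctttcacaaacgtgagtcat
Rsad2: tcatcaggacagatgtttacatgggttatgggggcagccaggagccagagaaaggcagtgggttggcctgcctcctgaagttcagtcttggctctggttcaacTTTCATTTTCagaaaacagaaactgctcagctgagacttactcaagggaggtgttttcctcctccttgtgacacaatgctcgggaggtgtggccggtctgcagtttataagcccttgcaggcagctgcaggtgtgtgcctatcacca
The match began 69 bases before the start in Irf7, 243 in Cxcl10, 44 in Ifit3 and 147 in Rsad2, and in Irf7, Ifit3 and Rsad2 it was on the opposite strand. Over all genes with a window it was present in 4.32% of the 995 higher genes, 2.25% of the 1556 lower genes, 2.64% of measured genes and 3.29% of all windows. A match describes letters in this window and does not show that a factor bound there.

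The FOXO motif GTAAACA, searched on both strands, was rare in these windows. It was present in 2.71% of higher, 1.61% of lower and 2.11% of measured genes, and in 3.25% of all windows. Prdm1 and Scel were also picked for printing after their values and matches were seen. Prdm1, among the 15 highest genes, holds 1 match, which is in capitals below, beginning 238 bases before the start (chr20:49564089-49564338, minus strand).
Prdm1: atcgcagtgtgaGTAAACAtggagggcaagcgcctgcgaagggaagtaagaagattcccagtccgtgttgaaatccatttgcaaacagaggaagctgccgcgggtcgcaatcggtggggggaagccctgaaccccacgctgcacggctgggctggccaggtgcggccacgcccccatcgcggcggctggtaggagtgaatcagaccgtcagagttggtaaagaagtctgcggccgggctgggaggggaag
Rsad2, shown above, holds the motif on the opposite strand, beginning 237 bases before the start. Scel, the highest gene of all, holds no FOXO match in this window but 1 match to the AP-1 element TGANTCA, in capitals, beginning 37 bases before the start (chr15:86754382-86754631, plus strand).
Scel: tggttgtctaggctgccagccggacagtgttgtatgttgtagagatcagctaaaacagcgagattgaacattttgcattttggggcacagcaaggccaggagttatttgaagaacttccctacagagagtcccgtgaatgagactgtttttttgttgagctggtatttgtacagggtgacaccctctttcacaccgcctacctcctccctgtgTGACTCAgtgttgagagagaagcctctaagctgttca
The AP-1 element, searched on both strands, was present in 5.33% of higher, 3.73% of lower and 4.10% of measured genes and in 6.36% of all windows. The other elements were also searched on both strands. The NR5A element CAAGGTCA was present in 0.80% of higher, 0.90% of lower and 0.76% of measured genes. For the cyclic AMP element TGACGTCA these shares were 3.22%, 2.25% and 3.16%, so that higher genes were near all measured genes. For the E2F element TTTCGCG they were 1.21%, 1.16% and 1.501%, so that higher and lower genes were both under all measured genes.

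Most genes of DNA replication and mitosis were lower. Of 60 measured genes of DNA replication and mitosis 36 were lower and 3 higher, with a median log2 ratio of -1.27, and a floor at the 75th percentile left 18 lower. Pclaf, a partner of the replication clamp, was 1380.0 in vehicle, 3768 with GFP and FSH, 562 with FOXOA3 and 425 with the mutant (8.86-fold lower). Topoisomerase 2 alpha (Top2a) had 1404 with GFP and 231 with the mutant (6.07-fold lower), and cyclin A2 (Ccna2) had 807 and 143 (5.66-fold lower). Of 22 D cyclins, G1 kinases and inhibitors 8 were lower and 3 higher, and centring left 4 lower. Cyclin D2 (Ccnd2), the D cyclin that FSH induces in granulosa cells, had 2878 in vehicle, 6379 with GFP and FSH, 2831 with FOXOA3 and 1132 with the mutant (5.63-fold lower). The transcription factor E2f5 was higher, at 1102 and 3705 (3.36-fold).

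Of 31 apoptosis and p53 genes 5 were higher (16.1%) and 6 lower (19.4%), near the 12.5% and 19.1% of all measured genes, and centring gave 8 higher. Perp, a junction protein induced by p53, had 53.1 with GFP and 3206 with the mutant (at least 31.9-fold higher), with 91.2 in vehicle and 131 with FOXOA3. The inflammatory caspase gene Casp4 had 196 and 941 (4.79-fold higher), the apoptosome gene Apaf1 had 630.1 and 1716 (2.72-fold higher), and the BCL2 family gene Bad had 1987 and 751 (2.65-fold lower).

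Energy metabolism and redox enzymes were lower in part. Of 27 genes of glucose uptake and glycolysis 10 were lower and 0 higher (median -0.81), and centring left 6 lower. Transketolase (Tkt), of the pentose phosphate pathway, had 6128 with GFP and 991 with the mutant (6.19-fold lower), and Gpi, the second enzyme of glycolysis, had 4384 and 879 (4.99-fold lower). Of 64 respiratory chain and ATP synthase genes 21 were lower and 1 higher (median -0.62), and centring left 13 lower and 2 higher. The higher gene in the main comparison was Ndufa5, of complex I, at 495 and 4841 (9.78-fold higher), while Ndufb10, of the same complex, had 1212 and 295 (4.11-fold lower). Of 36 antioxidant genes 21 were lower and 1 higher (median -1.13). The glutathione transferase genes Gstm2 and Gsta1 had 1028 and 44.0, and 2791 and 349, and the higher member, glutaredoxin (Glrx), had 296 and 2031 (6.86-fold).

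Of 36 endoplasmic reticulum chaperones 12 were lower (33.3%) and 5 higher (13.9%, near the 12.5% of all measured genes), with a median log2 ratio of -0.57. The chaperone Hyou1 had 421 with GFP, 1412 with FOXOA3 and 107 with the mutant (3.95-fold lower), and calreticulin (Calr) had 3323 with GFP and 979 with the mutant (3.39-fold lower). The co-chaperone genes Dnajb9 and Dnajb1 were higher: Dnajb9 had 2373 and 10908 (4.60-fold), and Dnajb1, a heat shock protein outside the reticulum, had 3398 and 15026 (4.42-fold). In the ATF4 amino acid list 7 of 34 were higher (20.6%) and 5 lower (14.7%), against 12.5% and 19.1% of all measured genes, with argininosuccinate synthase (Ass1), which takes part in arginine synthesis, at 2436 and 96.5 (at least 24.2-fold lower), and Atf3 at 109.8 and 550.3 (5.01-fold higher).

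Among 33 immediate-early, AP-1 and KLF factors 8 were higher and 3 lower. Klf6 had 4981 in vehicle, 516 with GFP and FSH, 4612 with FOXOA3 and 2219 with the mutant (4.30-fold higher), and Klf5 had 1269.5, 2.4, 658 and 441 in that order. In both, the GFP FSH array was the lowest. Of 27 mesenchymal and epithelial transcription factors 9 were higher (33.3%) and 6 lower (22.2%, near the 19.1% of all measured genes), with a median log2 ratio of 0.44. The count of higher genes was 15 with the floor at the 25th percentile and 4 with it at the 75th. Among the lower members was Id1, given above (5.88-fold lower). The homeobox gene Msx1 had 60.6 with GFP and 656 with the mutant (at least 6.53-fold higher), Meis2 had 112 and 629 (5.64-fold higher), and Ets1 had 216 and 1229 (5.69-fold higher).

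**Figure D3:**
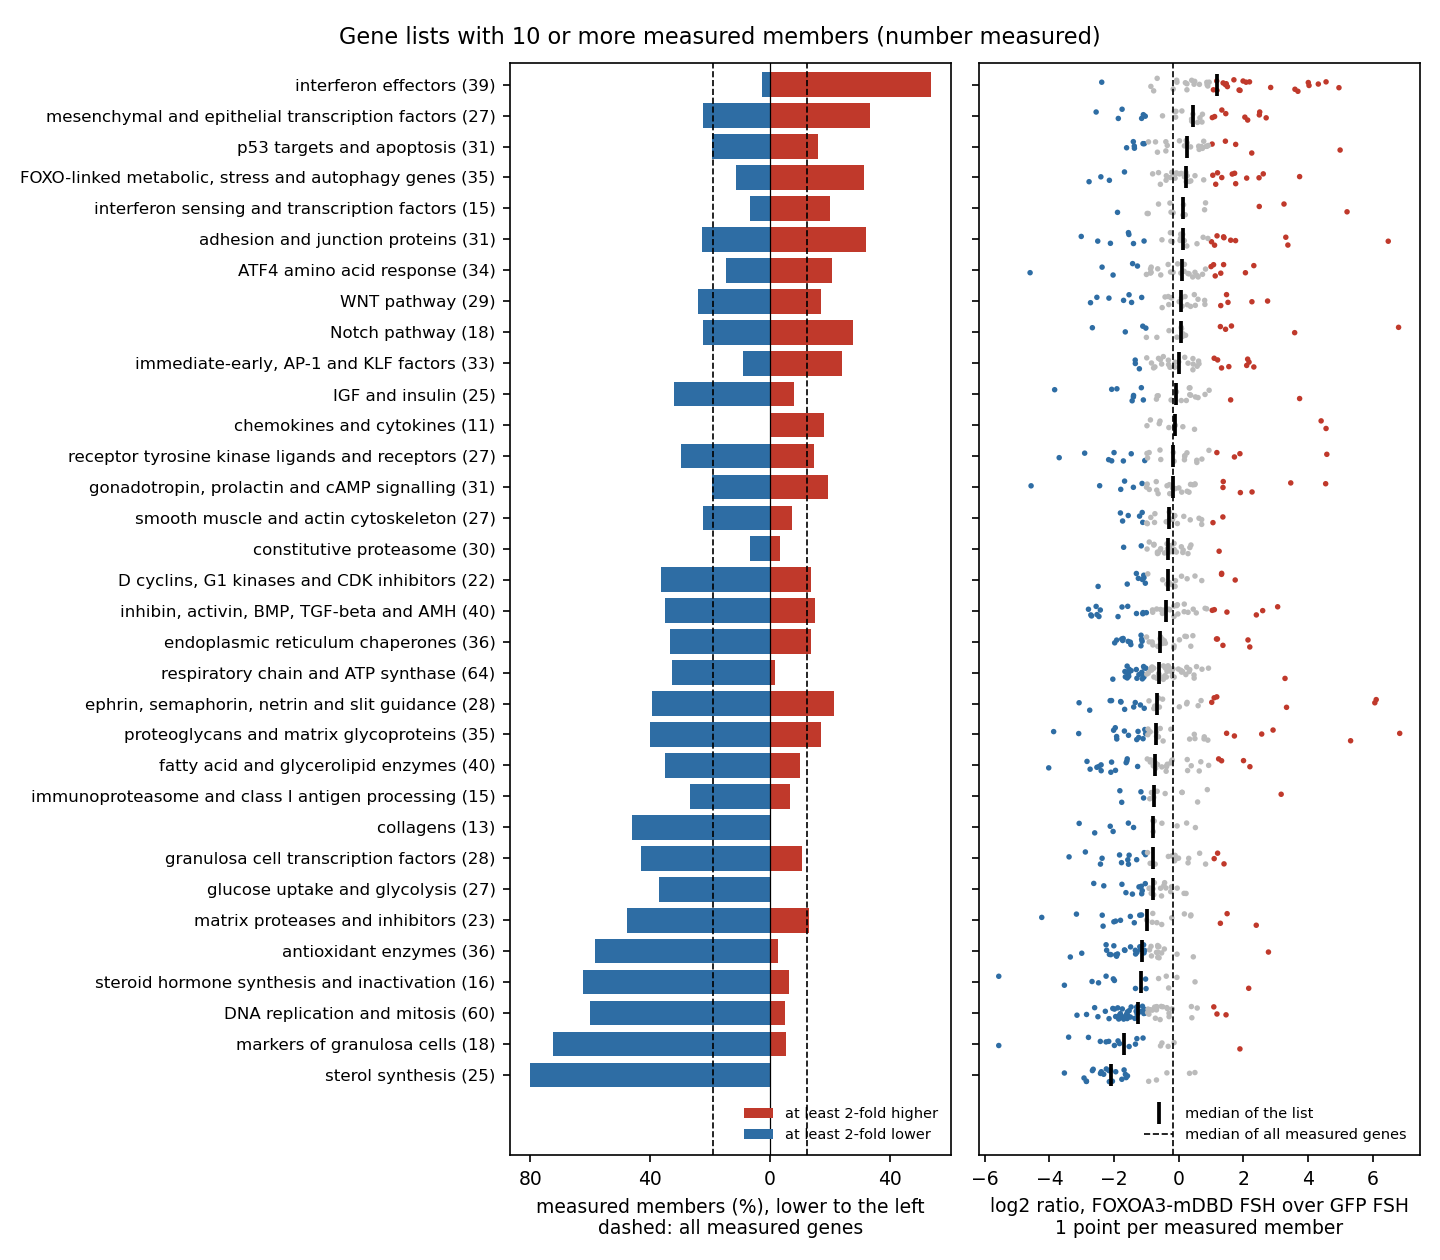
Left, percentage of the measured members of each gene list that were 2-fold or more higher (red, to the right) or lower (blue, to the left) with FOXOA3-mDBD, with dashed lines at 12.5% and 19.1% for all measured genes. Right, the log2 ratio of each measured member with the list median as a black tick, from 1.18 for interferon effectors to -2.11 for sterol synthesis, beside the median of all measured genes at -0.16.

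The labelled cell type was checked against its markers. All 18 measured granulosa markers were above the floor with GFP and FSH, and 15 were with the mutant. With the mutant 13 were lower and 1 higher (median -1.68). The Foxl2 and Inha values given above stayed above the floor on every array, and Kitlg, the KIT ligand, was the higher member, named after its value was seen, at 297 and 1105 (3.72-fold).

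Markers of other cells were mostly dim. Above the floor with GFP and with the mutant were 3 and 4 of 21 leukocyte genes, 2 and 3 of 12 endothelial genes, 6 and 4 of 15 fibroblast genes, and 3 and 2 of 11 smooth muscle and pericyte genes. The summed signal of the leukocyte list was 2195 with GFP and 2284 with the mutant, and that of the endothelial list was 624 and 900.3. Monocyte marker Cd14 had 727 and 1012, and the macrophage receptor Csf1r had 57.3 and 102. Of fibroblast genes, Dcn (decorin) had 624 in vehicle, 485 with GFP and FSH, 12504 with FOXOA3 and 206 with the mutant, and Col3a1 had 2607, 170.0, 7556 and 82.0, so that neither went with Aspn on the mutant array. Epithelial genes above the floor were 3 of 14 with GFP and 5 with the mutant, where Scel was far above the others and Epcam had 169.9 and 112. Of 4 erythroid genes, Hbb had 542 and 2719, whereas Hba-a3, of the other globin chain, had 7108 and 904. Of the other marker lists, 2 of 4 theca genes were lower and 0 higher, 4 of 8 luteal genes were lower and 1 higher, and 0 of 3 oocyte genes were called. The part of other cells in the differences was not tested.

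The mutant FSH array was also set against the nearest of the other 3 arrays. Of 10407 genes above the floor on at least 1 array, 599 were 2-fold or more above all 3 others and 837 were 2-fold or more below all 3. Above all 3, Ranbp17 had a gap of 58.0-fold and Spp1 of 31.9-fold. The sodium channel gene Scn1a had 4024 with the mutant and at most 65.3 elsewhere, the dopamine receptor gene Drd4 had 3745 and at most 74.7, and the forkhead gene Foxq1 had 3591 and at most 20.4. Tox3, Tchh and Gpr83 were likewise under the floor on all of the other 3 arrays, at 3536, 3408 and 3229.6 with the mutant. Below all 3, Mmp11 had a gap of 12.3-fold, Ccn3 of 8.54-fold and the sialyltransferase gene St3gal1 of 6.33-fold. Gaa, the lysosomal enzyme that breaks down glycogen, had 1089.8 in vehicle, 629.6 with GFP and FSH, 746 with FOXOA3 and 78.8 with the mutant.

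The direction of the difference went with gene length, a property looked at after the ratios had been seen. Annotated lengths from the RefSeq table of GRCr8 were known for 99.6% of measured genes, which were split into 5 equal groups. In the group of shortest genes (median 4.47 kb) 8.18% of genes were higher and 26.2% lower, and in the longest (median 126 kb) 19.5% were higher and 14.6% lower. The median log2 ratios from shortest to longest were -0.47, -0.31, -0.18, 0.04 and 0.11. FOXOA3 FSH against GFP vehicle, which uses neither of the arrays compared here, had medians between 0.00 and 0.01 in all 5 groups. Genes at the floor on both arrays have a ratio of 0, so these medians can hardly show an order. In that comparison 4.79% of the shortest and 7.05% of the longest genes were higher. The shares of lower genes were 3.24% and 6.23%. FOXOA3 FSH against GFP FSH, which shares the GFP FSH array with the comparison described here, had medians of -0.07, -0.04, 0.00, 0.03 and 0.10 from shortest to longest, in the same order and smaller in size. Whether the order belongs to the mutant or to the shared array was not tested. GC content of the promoter window showed no such order, with medians of -0.07, -0.25, -0.25, -0.17 and -0.11 from the lowest of 5 groups to the highest.

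**Figure D4:**
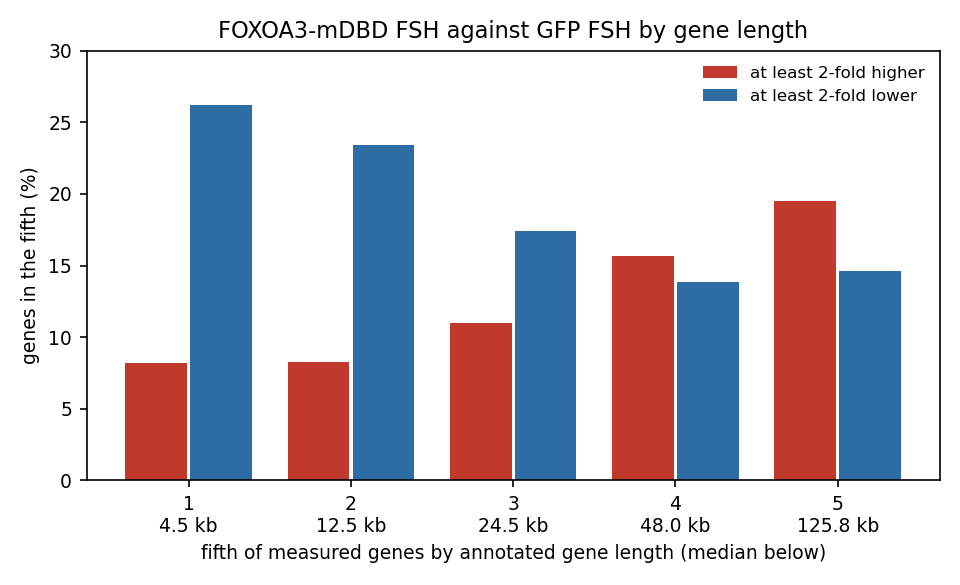
Percentage of measured genes that were 2-fold or more higher (red) or lower (blue) with FOXOA3-mDBD, in 5 groups of genes by annotated length, with the median length in kilobases under each group. The share of higher genes goes from 8.18% among the shortest genes to 19.5% among the longest, while that of lower genes goes from 26.2% to 14.6%.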

How the data were processed

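Each probe set has 1 deposited intensity per array, in linear units, made by the authors with the MAS5 method according to the submitters' processing notes, which give no version or setting. MAS5 ratios are noisy for dim probe sets, and precision is limited by the number of arrays. Of 31099 probe sets, 57 were controls, 436 had several gene symbols and 9780 had none in the platform annotation, which can be old; these were left out of the gene comparison. Each gene was read by its brightest probe set, by the mean of the 4 arrays.

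From these values the log2 ratio of FOXOA3-mDBD FSH over GFP FSH was computed with Python 3.11.15, numpy 2.4.6 and pandas 2.3.3, after raising signals to the floor of 100.5, and genes were called at 2-fold. With 1 array a group no test was run and no p-value computed. The calculation was tested on simulated data. The gene lists (42, of which 10 hold cell type markers) were written from general knowledge and contain 1375 symbols, of which 158 were not found on the array and are not analysed here. Some genes stand in more than 1 list.

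The genes and lists were chosen with earlier results of these data known, and no pattern is offered as independent support. Genes were named by rule: the 15 highest and 15 lowest ratios among genes with a signal of at least 4 times the floor; up to 6 members of each list by size of the ratio; the 10 genes with the largest median among those with 3 or more probe sets all 4-fold or more apart in 1 direction; Foxo1, Foxo3 and Foxo4; the 10 brightest called genes; and the 10 genes furthest above and the 10 furthest below all other arrays, over genes above the floor on at least 1 array. Genes named outside it are marked where they occur or, for fixed groups of 5 or fewer, complete a count. Promoter windows, gene positions and lengths are those of RefSeq for GRCr8; 84.1% of measured genes had a window, and the first listed start was used. The alternatives were floors at the 25th and 75th percentile, both signals above the floor, and no filter on dim genes. Scaling was by quantiles, by centring the log2 ratios on their median, or by loess. Further alternatives were the mean of measured probe sets, the brightest probe set on the 2 arrays, and probe sets not joined to genes.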

Additional observations from a re-analysis of the deposited data

Results flagged for a closer look

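Probe sets without a single gene symbol were outside the gene comparison. Of 10216 such probe sets 3968 were measured, and 647 (16.3%) were 2-fold or more higher and 557 (14.0%) 2-fold or more lower with FOXOA3-mDBD than with GFP. The log2 ratios at the ends were 6.05 for probe set 1392813_at and 5.49 for 1374089_at, and -4.42 for 1385150_at and -4.33 for 1378883_at. Their genes are not named here.

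Some genes were apart from GFP FSH in opposite directions with the 2 FOXO1 forms. Both comparisons share the GFP FSH array, and the difference between them was not tested. They also differ in the spike control, which was 395 with GFP FSH, 539 with FOXOA3-mDBD and 22.6 with FOXOA3. Only the FOXOA3 ratio thus sets arrays with unlike spike signals against each other. Of the 1865 genes lower with FOXOA3-mDBD, 50 were 2-fold or more higher with FOXOA3. Of the 1221 genes higher with FOXOA3-mDBD, 16 were 2-fold or more lower with FOXOA3. Opposite calls were thus a small part of either group. The share of all measured genes called with FOXOA3 was not counted. The 5 furthest apart in each direction are named, after their values were seen. On the lower side the log2 ratio with FOXOA3-mDBD was -3.09 for Ccn3, -1.24 for Dcn, -2.37 for Cebpb, -1.80 for the aggrecanase gene Adamts5 and -1.98 for Hyou1, while the ratios with FOXOA3 were 2.86, 4.69, 2.42, 2.77 and 1.75. On the higher side it was 3.26 for Hook1, 2.55 for Parpbp, 2.36 for Ccrl2, 1.38 for Myom2 and 1.73 for the flap endonuclease gene Fen1, while the ratios with FOXOA3 were -1.13, -1.22, -1.14, -1.77 and -1.38.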

How the results depend on the processing

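The number of higher genes, 1221, was 1949 with the floor at the 25th percentile, 699 with it at the 75th percentile and 1838 with probe sets not joined to genes. The number of lower genes, 1865, was 872 with the floor at the 75th percentile. With that floor a CCAAT box was present in 42.24% of lower genes. Of 228 named genes called at 2-fold, none took the other sign under the alternatives that gave a value; 224 or more stayed past 2-fold under each scaling, and 164 of 199 with the 75th percentile floor. Of 42 list medians 14 changed sign under at least 1 alternative. Of these, 12 were under 1.5-fold from 0 to begin with, such as chemokines and cytokines (-0.12, and 0.90 with the 75th percentile floor), WNT (0.08, and -0.22 with both signals above the floor) and interferon sensing (0.13, and -0.17 with both above). The other 2 were small marker lists: epithelium, 0.71, was -0.60 with both signals above the floor, and erythroid cells, 1.32, was -0.14 with the floor at the 25th percentile. The cause was not tested. No paired analysis was possible because each group had 1 array. Signal over background limits genes near the floor.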

Other observations

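Gene families taken by symbol, after the data had been seen, added groups that the lists did not cover. Of all measured genes 12.5% were higher and 19.1% lower. Of 73 mitochondrial ribosomal protein genes, all measured, 17 were lower with FOXOA3-mDBD than with GFP (23.3%, near that of all measured genes). None was higher, and the median log2 ratio was -0.49. Of 42 measured cytosolic ribosomal protein genes 1 was higher and 1 lower, with a median of -0.19. Of 15 tetraspanins, membrane proteins that organise other membrane proteins, 4 were higher (26.7%) and 7 lower (46.7%). Of 173 solute carriers 24 were higher (13.9%) and 42 lower (24.3%), near the shares of all measured genes. Of 189 zinc finger (Zfp) genes 25 were higher (13.2%, near that of all measured genes) and 24 lower (12.7%), and their median log2 ratio was -0.02.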
